A study of Mus musculus with 7 samples.

Results

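This account describes 7 genes with little-known roles in macrophages, Nxpe5, Strip2, Prex2, Adgrg6, Tcof1, Fmo2 and Kcnn3, among the 17209 genes listed for muscularis macrophages of the mouse small intestine. The 7 were picked by name from the read counts because sham and pMCAO values separated or nearly separated. Their levels and group differences are therefore a description and carry no test. The libraries were 4 after sham surgery (Sham 1 to Sham 4) and 3 after pMCAO surgery (pMCAO 1 to pMCAO 3), the operation that the series title calls stroke. All cells came from C57BL6/J mice 24 h after surgery and had been sorted from the peeled muscle layer by GFP at the Cx3cr1 locus, in both groups alike. The labels give no age, do not say how many animals made each library, and name a pool in the description of pMCAO 3, so the spread between libraries may be partly technical.

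Muscularis macrophages lie among the smooth muscle and nerves of the gut wall, where they clear debris, support neurons and shape contractions. The 7 genes belong to unrelated families. Nxpe5 encodes a member of the neurexophilin and PC-esterase domain family, whose function is poorly known. Strip2 encodes a subunit of STRIPAK, an assembly that holds the phosphatase PP2A next to kinases. Prex2 encodes an exchange factor that activates the small GTPase Rac in answer to phosphoinositide 3-kinase (PI3K) and G protein signals. Adgrg6 encodes an adhesion G protein-coupled receptor best known from Schwann cell myelination. Tcof1 encodes treacle, a nucleolar protein needed to transcribe ribosomal DNA. Fmo2 encodes a flavin-containing monooxygenase, and Kcnn3 the potassium channel SK3, which calcium opens through bound calmodulin and which in gut muscle is best known from PDGFRA-positive fibroblast-like cells.

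Promoter windows from RefSeq (GRCm38.p6) were used for 5 of the 7 genes, Nxpe5, Strip2, Adgrg6, Fmo2 and Kcnn3. Prex2 had no window there, and Tcof1 was left out of the search. The 250 bases before the start site are printed for 4 of them, on the strand of the gene, to show how CpG and motif content differ among them. Capitals mark CCAAT (the CCAAT box) and GGGCGG (the GC box), on either strand.
Nxpe5, chr5:138225654-138225903, plus strand: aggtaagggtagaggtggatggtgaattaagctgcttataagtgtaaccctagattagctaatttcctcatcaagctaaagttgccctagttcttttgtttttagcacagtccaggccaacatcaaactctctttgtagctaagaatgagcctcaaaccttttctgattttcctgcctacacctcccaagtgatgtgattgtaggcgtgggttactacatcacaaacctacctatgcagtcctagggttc
Strip2, chr6:29916763-29917012, plus strand: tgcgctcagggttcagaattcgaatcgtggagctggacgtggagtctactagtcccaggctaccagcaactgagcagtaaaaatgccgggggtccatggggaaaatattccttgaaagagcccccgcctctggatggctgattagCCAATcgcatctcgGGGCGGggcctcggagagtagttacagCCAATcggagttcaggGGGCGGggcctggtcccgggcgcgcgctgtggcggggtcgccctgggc
Fmo2, chr1:162898759-162899008, minus strand: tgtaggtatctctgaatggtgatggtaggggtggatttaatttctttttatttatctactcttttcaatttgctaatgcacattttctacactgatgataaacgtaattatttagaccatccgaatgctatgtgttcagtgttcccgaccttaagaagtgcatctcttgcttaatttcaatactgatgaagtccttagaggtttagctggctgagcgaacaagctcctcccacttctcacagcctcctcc
Kcnn3, chr3:89519914-89520163, plus strand: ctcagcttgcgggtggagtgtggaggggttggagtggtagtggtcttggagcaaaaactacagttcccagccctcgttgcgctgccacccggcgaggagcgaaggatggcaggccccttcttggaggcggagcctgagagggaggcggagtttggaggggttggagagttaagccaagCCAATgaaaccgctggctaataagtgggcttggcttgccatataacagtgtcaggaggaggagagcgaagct

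The Nxpe5 window holds 1 CpG dinucleotide and the Fmo2 window 4, against a median of 14 over 13414 windows of genes listed in the table and of 6 over all 32841 windows of the same length. The windows of Kcnn3, Strip2 and Adgrg6 hold 10, 18 and 32. In Strip2 a CCAAT box beginning 105 bases before the start site is followed by a GC box at 91, and a second CCAAT box at 64 is followed by a GC box at 48. Kcnn3 has a CCAAT box at 72, and Adgrg6 has GC boxes at 160 and 71. A CCAAT box occurs in 34.7% of the windows of listed genes and 33.9% of all windows, and a GC box in 54.3% and 32.7%. None of the 5 windows holds the palindromic element of the glucocorticoid receptor, which 0.283% of the windows of listed genes and 0.387% of all windows hold. Nor do they hold the AP-1 site TGANTCA (4.53% and 6.75%), the E-box CACGTG (7.86% and 6.02%) or the TATA box TATAAA (6.93% and 12.4%). Matching letters are a description of sequence and say nothing about binding.

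Nxpe5 and Tcof1 were lower after pMCAO and Strip2, Prex2, Adgrg6 and Fmo2 were higher, with no overlap between groups, while Kcnn3 overlapped through pMCAO 2. Over all 17209 genes, 5.99% were higher and 6.58% were lower after pMCAO with no overlap between groups. As the genes were picked for this separation, nothing is read from their count. Levels are in CPM, counts scaled to a common library total with TMM factors, and log2 changes are pMCAO minus sham from a fit over all genes.

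**Figure D1:**
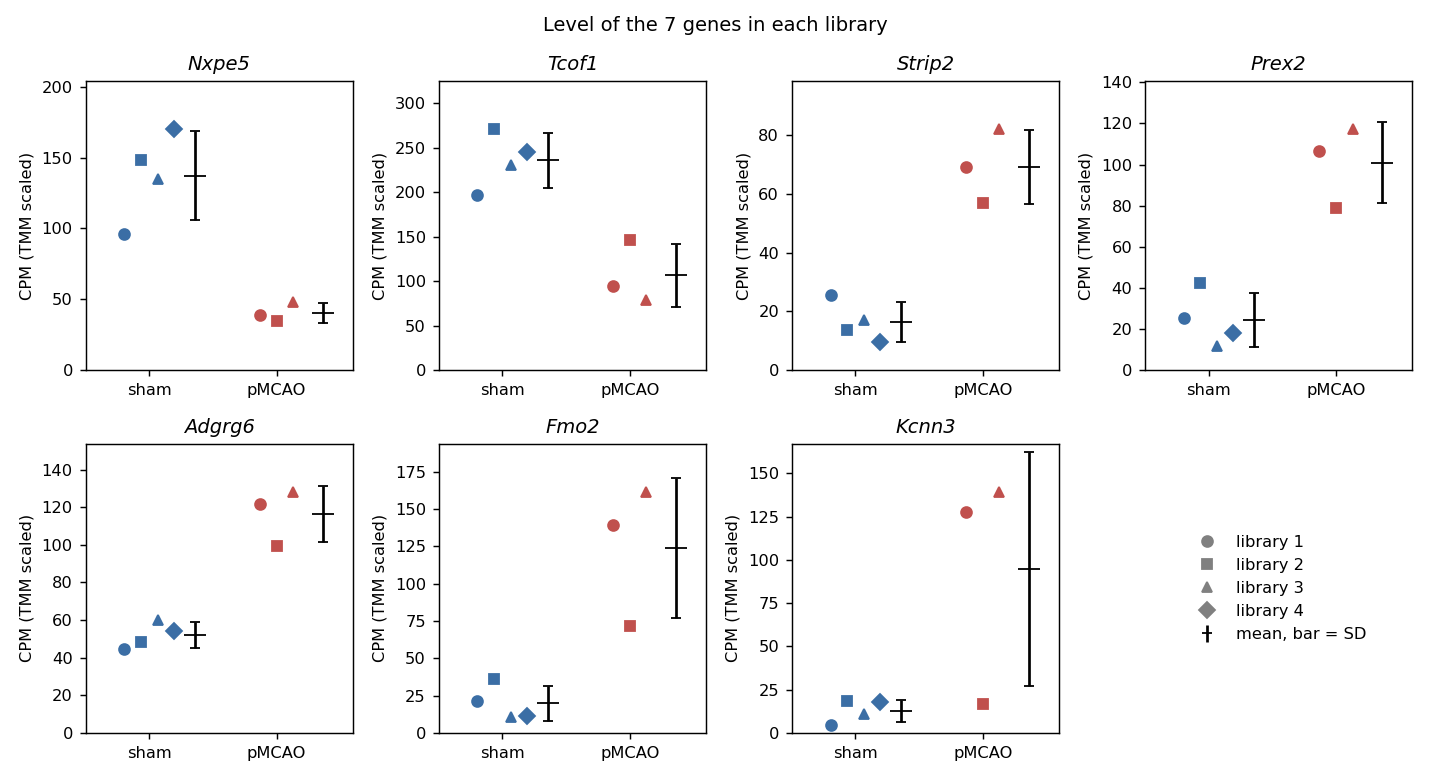
CPM after TMM scaling (vertical axis, from 0) of each of the 7 genes in 4 sham (blue) and 3 pMCAO (red) libraries, with the mean and SD in black and marker shapes for the library number. Nxpe5 and Tcof1 are lower in every pMCAO library than in every sham library, and pMCAO 2 stands at 16.8 CPM for Kcnn3 against 127 and 139 CPM in the other pMCAO libraries.

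Nxpe5 (ENSMUSG00000047592, chromosome 5, 138225898 to 138253363 of GRCm38) was at 95.8, 148, 135 and 170 CPM in Sham 1 to Sham 4 and at 38.7, 34.5 and 48.0 CPM in pMCAO 1 to pMCAO 3. The highest pMCAO library lay below the lowest sham library. The means were 137 ± 31.2 CPM (SD, n = 4) and 40.4 ± 6.95 CPM (SD, n = 3), a log2 change of -1.76 (SE 0.22). These values rest on 453 to 6185 reads per library, so counting error is small beside the spread between libraries.

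Nxpe5 was picked because its groups separated, and its 3 measured paralogs were not, so nothing is read from their overlap. Over all genes 12.6% had no overlap between groups. Per kb of exon Nxpe5 was the highest of the family in sham libraries, at a mean of 30.7 CPM per kb, against 2.56 for Nxpe4, 1.27 for Nxpe3 and 0.760 for Nxpe2. By the edgeR quasi-likelihood test over all genes 0 of these 3 paralogs changed. Their log2 changes were 0.40 (SE 0.37, adjusted p = 0.677), -0.17 (SE 0.73, adjusted p = 0.943) and 0.73 (SE 0.51, adjusted p = 0.560) in that order, and each had overlapping groups. Whether the Nxpe5 difference is larger than theirs was not tested.

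The gene that follows Nxpe5 on the chromosome, Lamtor4, begins 2119 bases after its end on the same strand and encodes a subunit of the Ragulator complex at the lysosome. Lamtor4 had a sham mean of 38.9 ± 6.72 CPM and a pMCAO mean of 26.1 ± 6.34 CPM, with overlapping groups (log2 change -0.58, SE 0.25, adjusted p = 0.329 by edgeR). Nxpe5 had 325 to 387 reads for every 100 reads of Lamtor4 in sham libraries and 110 to 252 in the pMCAO libraries. Since Nxpe5 was chosen for its separation and Lamtor4 differed less, the ratio carries that separation over.

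Tcof1 (ENSMUSG00000024613, chromosome 18, 60813755 to 60848971) was at 197, 271, 231 and 246 CPM in Sham 1 to Sham 4. After pMCAO it was at 95.1, 146 and 78.7 CPM, with pMCAO 2 nearest to the sham range. The means were 236 ± 31.0 CPM (SD, n = 4) and 107 ± 35.1 CPM (SD, n = 3), a log2 change of -1.15 (SE 0.22).

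Tcof1 lies beside Cd74, which encodes the invariant chain of class II molecules and is among the most abundant transcripts of these cells. The 2 genes are on opposite strands and their ends face each other, with Cd74 ending at 60812652, 1103 bases from the end of Tcof1, and with no shared exon. Cd74 was at 4755, 6921, 4262 and 5152 CPM in Sham 1 to Sham 4 and at 1668, 2808 and 1329 CPM in pMCAO 1 to pMCAO 3. Cd74 did not pass the edgeR test over all genes (log2 change -1.45, SE 0.26, adjusted p = 0.0527). In both genes Sham 2 was the highest sham library, pMCAO 2 the highest pMCAO library and pMCAO 3 the lowest library of all. The lowest sham library differed, being Sham 1 for Tcof1 and Sham 3 for Cd74. For every 100 Cd74 reads there were 4.14, 3.91, 5.43 and 4.77 Tcof1 reads in sham libraries and 5.70, 5.20 and 5.93 after pMCAO. This ratio varied 1.51-fold between its lowest and highest library, while Tcof1 itself varied 3.44-fold and Cd74 5.21-fold. Tcof1 was picked for its separation and Cd74 was chosen after its values were seen. As both were lower after pMCAO, a ratio steadier than either gene follows in part from that choice. The strand setting of the counting is not given in the sources used here. Whether reads from Cd74 transcripts that run past their annotated end entered the Tcof1 count was not tested.

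**Figure D2:**
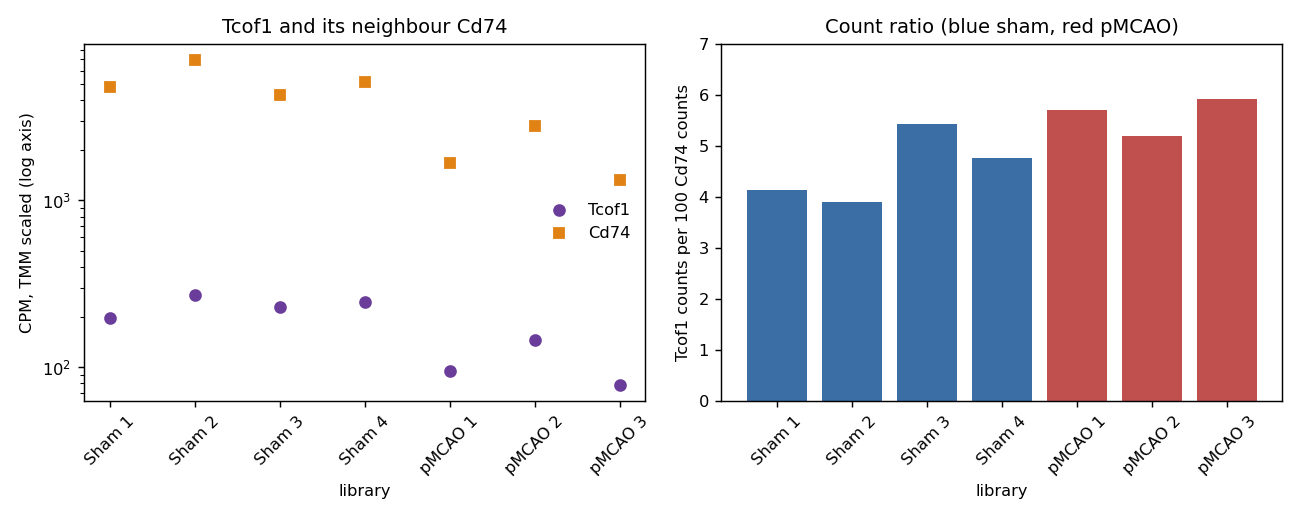
Left, CPM after TMM scaling (log axis) of Tcof1 and its neighbour Cd74 in each of the 7 libraries. Right, Tcof1 reads per 100 Cd74 reads (bars from 0) in sham (blue) and pMCAO (red) libraries, which lie between 3.91 and 5.93. Cd74 varies 5.21-fold, and both genes are lower after pMCAO.

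The genes that work with treacle did not share a direction. Of 27 measured genes of ribosomal DNA transcription and nucleolar RNA processing other than Tcof1, 0 changed by the edgeR test over all genes, 11 had higher and 16 lower means. Their median log2 change was -0.12, which turned to 0.005 over genes of at least 5 CPM, against -0.02 over all genes. Nolc1, the nucleolar phosphoprotein most like treacle, was at 19.4 ± 3.71 and 9.16 ± 1.43 CPM (log2 change -1.08, SE 0.30, adjusted p = 0.153). Dkc1, the pseudouridine synthase of the box H/ACA particles, was at 45.1 ± 6.89 and 71.9 ± 5.10 CPM (log2 change 0.67, SE 0.19, adjusted p = 0.169). Twistnb, a subunit of RNA polymerase I, was at 20.6 ± 3.45 and 35.2 ± 3.84 CPM (log2 change 0.77, SE 0.23, adjusted p = 0.190). Sham and pMCAO values did not overlap in these 3 genes, which were named for the smallest p of the list. Of the 27 genes, 4 were higher and 2 lower with no overlap, where 12.6% of all genes did not overlap in either direction.

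Strip2 (ENSMUSG00000039629, chromosome 6, 29917012 to 29959681) was at 25.5, 13.7, 17 and 9.46 CPM in Sham 1 to Sham 4 and at 69.1, 56.8 and 82.1 CPM in pMCAO 1 to pMCAO 3. Every pMCAO library was above every sham library, and the sham libraries differed 2.69-fold among themselves. The means were 16.4 ± 6.78 CPM (SD, n = 4) and 69.3 ± 12.6 CPM (SD, n = 3), a log2 change of 2.08 (SE 0.29).

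The other genes of STRIPAK went both ways. Of 22 measured genes other than Strip2, 0 changed by the edgeR test, 10 had higher and 12 lower means, with a median log2 change of -0.04 (0.003 with upper-quartile factors and with limma-voom). At an unadjusted p under 0.05 by edgeR there were 6 of the 22, and 2312 of all 17209 genes. Of the 22, 2 were higher and 3 lower with no overlap between groups, where 12.6% of all genes did not overlap in either direction. Strn3, a striatin scaffold, was at 115 ± 17.3 and 159 ± 26.8 CPM (log2 change 0.47, SE 0.18, adjusted p = 0.284). Ppp2r1a, the scaffold subunit of PP2A, was at 80.8 ± 5.60 and 58.2 ± 9.84 CPM (log2 change -0.47, SE 0.18, adjusted p = 0.285).

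Prex2 (ENSMUSG00000048960, chromosome 1, 10993465 to 11303681) was at 25.6, 42.5, 11.7 and 18.3 CPM in Sham 1 to Sham 4 and at 107, 78.9 and 117 CPM in pMCAO 1 to pMCAO 3. The groups did not overlap, although Sham 2 and Sham 3 differed 3.62-fold. The means were 24.5 ± 13.2 CPM (SD, n = 4) and 101 ± 19.8 CPM (SD, n = 3), a log2 change of 2.04 (SE 0.34).

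Prex1, the paralog known from leukocytes, remained the more abundant of the pair per kb of exon. Its means were 25.7 CPM per kb in sham libraries and 20.3 after pMCAO, against 1.48 and 6.08 for Prex2. Prex1 did not pass the test (log2 change -0.34, SE 0.19, adjusted p = 0.458 by edgeR), and its groups overlapped. Among 26 measured genes of Rac activation and PI3K signalling other than Prex2, 0 changed, 7 had higher and 19 lower means, with a median log2 change of -0.12. Pik3cd, the PI3K catalytic subunit of leukocytes, was at 158 ± 10.8 and 104 ± 24.2 CPM (log2 change -0.60, SE 0.19, adjusted p = 0.197), and Vav2, another Rac exchange factor, had a log2 change of -0.48 (SE 0.22, adjusted p = 0.367).

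Adgrg6 (ENSMUSG00000039116, chromosome 10, 14402583 to 14545659) was at 44.5, 48.6, 60.3 and 54.3 CPM in Sham 1 to Sham 4 and at 122, 99.3 and 128 CPM in pMCAO 1 to pMCAO 3. It was the steadiest of the 5 higher genes within groups, with a 1.35-fold range over sham and a 1.29-fold range over pMCAO libraries. The means were 51.9 ± 6.88 CPM (SD, n = 4) and 116 ± 15.1 CPM (SD, n = 3), a log2 change of 1.16 (SE 0.18). An antisense gene, Gm46212, overlaps its exons in GENCODE M21 and is not in the table, so without the strand setting the reads of the pair cannot be told apart.

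Of 17 other adhesion receptors measured, 0 changed by the edgeR test, 12 had higher and 5 lower means, with a median log2 change of 0.31. Adgrf5 and Adgrl4, both known from endothelium, were at 78.2 ± 39.9 and 256 ± 56.2 CPM and at 28.8 ± 15.6 and 97.3 ± 17.7 CPM, with log2 changes of 1.71 (SE 0.34, adjusted p = 0.0718) and 1.76 (SE 0.38, adjusted p = 0.104). Adgrl2, a latrophilin, had a log2 change of 0.54 (SE 0.24, adjusted p = 0.348). A second list held ligands of Adgrg6 and the cAMP pathway it signals through, and of its 17 measured genes 0 changed and 11 had higher means (median log2 change 0.19). Its ligands type IV collagen (Col4a1), laminin alpha 2 (Lama2) and the prion protein (Prnp) had the smallest p in the list. Col4a1 was at 27.9 ± 8.16 and 65.5 ± 18.2 CPM (log2 change 1.23, SE 0.26, adjusted p = 0.0718), Lama2 at 3.10 ± 1.12 and 13.7 ± 10.7 CPM (2.14, SE 0.58, adjusted p = 0.146) and Prnp at 6.33 ± 2.15 and 13.6 ± 2.23 CPM (1.10, SE 0.38, adjusted p = 0.237). The Lama2 groups overlapped. So did those of Col4a2, another type IV collagen chain on the list (log2 change 0.48, SE 0.36, adjusted p = 0.586).

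Fmo2 (ENSMUSG00000040170, chromosome 1, 162874317 to 162898726) was at 21.2, 35.96, 10.7 and 11.4 CPM in Sham 1 to Sham 4 and at 139, 71.5 and 161 CPM in pMCAO 1 to pMCAO 3. The groups did not overlap, with Sham 2 and pMCAO 2 nearest to each other. The means were 19.8 ± 11.8 CPM (SD, n = 4) and 124 ± 46.9 CPM (SD, n = 3), a log2 change of 2.65 (SE 0.43).

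Fmo1, which begins 7707 bases after the end of Fmo2 on the same strand, moved in the same direction at a lower level. The sham mean of Fmo1 was 4.498 ± 1.46 CPM and its pMCAO mean 15.8 ± 1.94 CPM, with no overlap (log2 change 1.82, SE 0.36, adjusted p = 0.0614 by edgeR), and did not pass. It passed with DESeq2, with limma-voom and over genes of at least 5 CPM. Fmo5 was at 43.0 ± 16.2 and 37.2 ± 11.4 CPM (log2 change -0.21, SE 0.30, adjusted p = 0.808). Per kb of exon the order in sham libraries was Fmo5 (7.57 CPM), Fmo2 (3.53) and Fmo1 (0.713), and after pMCAO it was Fmo2 (22.1), Fmo5 (6.55) and Fmo1 (2.51).

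Kcnn3 (ENSMUSG00000000794, chromosome 3, 89520164 to 89675132) was at 4.77, 18.4, 10.9 and 17.6 CPM in Sham 1 to Sham 4 and at 127, 16.8 and 139 CPM in pMCAO 1 to pMCAO 3. It was the only one of the 7 whose groups overlapped, because pMCAO 2 lay within the sham range while the other pMCAO libraries lay far above it. The means were 12.9 ± 6.38 CPM (SD, n = 4) and 94.5 ± 67.5 CPM (SD, n = 3), a log2 change of 2.86 (SE 0.78). Without pMCAO 2 the log2 change was 3.37 (SE 0.40). Of the 6 genes without overlap, Tcof1 came closest to it as a ratio, though not by the difference in CPM, at 146 CPM in pMCAO 2 against 197 CPM in Sham 1.

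Of 5 other measured genes of calcium-activated potassium channels and calmodulin, 0 changed by the edgeR test. Kcnn4, the intermediate-conductance channel of leukocytes, was at 9.77 ± 3.61 and 4.95 ± 3.53 CPM with overlapping groups (log2 change -0.98, SE 0.53, adjusted p = 0.445). Per kb of exon Kcnn4 was at a mean of 1.91 CPM and Kcnn3 at 1.24 in sham libraries, and at 0.968 and 9.04 after pMCAO. Of the calmodulin genes, Calm3 had a log2 change of -0.57 (SE 0.30, adjusted p = 0.422) and Calm2 of 0.31 (SE 0.17, adjusted p = 0.452). Kcnn1 and Kcnn2 are not listed in the table.

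**Figure D3:**
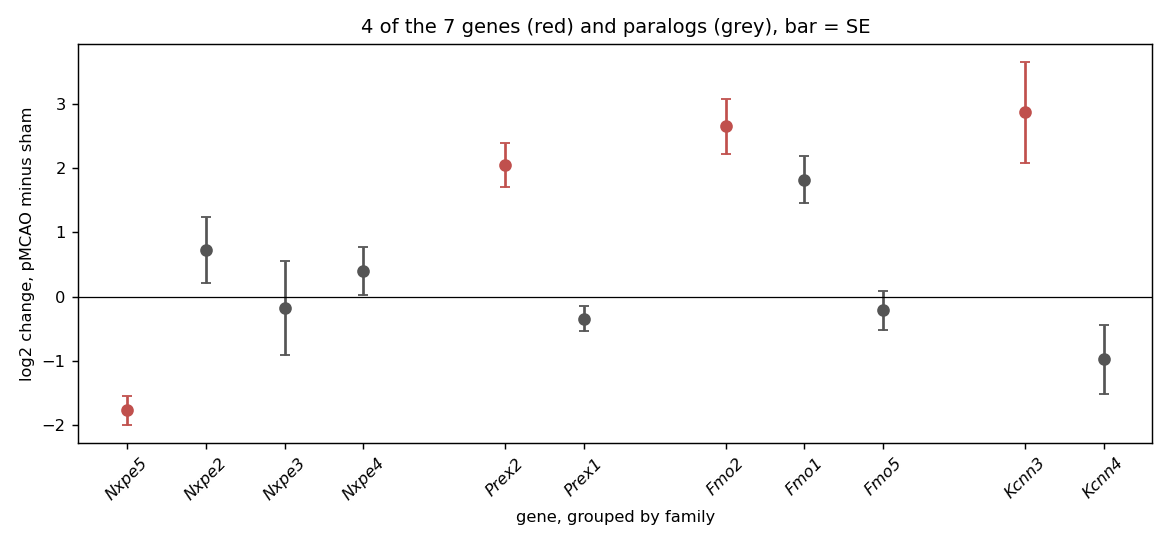
Log2 change, pMCAO minus sham (vertical axis), with its SE (bars) for Nxpe5, Prex2, Fmo2 and Kcnn3 (red) and paralogs of each (grey), grouped by family. Fmo1 (1.82) lies on the side of Fmo2 (2.65), while Prex1 (-0.34) and Kcnn4 (-0.98) lie on the other side of 0 from Prex2 (2.04) and Kcnn3 (2.86).

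Over the 8 related lists, with each gene counted once, 0 of 119 measured genes changed by the edgeR test over all genes, where 0.0988% of all genes did (0.0697% higher and 0.0291% lower). At an unadjusted p under 0.05 there were 25 of the 119, and 2312 of all 17209 genes. DESeq2 called 8 of the 119 and limma-voom 3. The median log2 change of the 119 was -0.03, against -0.02 over all genes.

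Between genes, levels were compared per kb of exon. In sham libraries Tcof1 (44.8 ± 5.88 CPM per kb) and Nxpe5 (30.7 ± 6.97) had overlapping ranges and both lay above the other 5, which followed as Adgrg6 (4.24), Fmo2 (3.53), Strip2 (1.97), Prex2 (1.48) and Kcnn3 (1.24), each overlapping the next. After pMCAO Fmo2 (22.1 ± 8.37) and Tcof1 (20.2 ± 6.66) overlapped and lay at the top, and Tcof1 did not overlap Adgrg6 (9.52), the next in order. Kcnn3 (9.04), Nxpe5 (9.03), Strip2 (8.32) and Prex2 (6.08) followed, each with a range that overlapped the next.

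The 5 higher genes shared an order over the pMCAO libraries, highest in pMCAO 3 and lowest in pMCAO 2. They were not alike over the sham libraries. The profiles most like each other were those of Prex2 and Fmo2, which differed by a root mean square of 0.36 in log2 units over the 7 libraries, and Nxpe5 and Tcof1 differed by 0.48. Strip2 differed from Prex2 by 0.62 and Kcnn3 from Fmo2 by 0.96. Prex2, Fmo2 and Kcnn3 were highest among sham libraries in Sham 2, Strip2 in Sham 1 and Adgrg6 in Sham 3.

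Among genes of at least 1 CPM, the 3 nearest profiles were found for each gene by the same measure. Nearest to Nxpe5 was Cd209f (0.17), a lectin of resident macrophages, at 10.01, 20.2, 12.96 and 18.6 CPM in Sham 1 to Sham 4 and 3.76, 3.30 and 3.92 CPM in the pMCAO libraries, followed by Lbx2 (0.20) and Prkar1b (0.22). Lbx2 was at 0.342, 0.0942 and 0.336 CPM in pMCAO 1 to pMCAO 3, so the 0.5 CPM added before taking logs weighs on its distance. Nearest to Tcof1 were Emc10 (0.12), Il21r (0.14) and the complement gene C1qa (0.15), and Cd74 (0.21) was at rank 33 of 16035 genes. Adgrg6 was followed most closely by the unnamed transcript RP23-167H23.2 (0.15), Tex12 (0.17) and RP23-434H17.3 (0.17).

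Nearest to Strip2 were the mitochondrial ribosomal RNA mt-Rnr2 (0.32), the basement membrane gene Nid1 (0.34) and the transporter Abca6 (0.34). The reads of mt-Rnr2 came to 39150, 20380, 22400 and 16780 CPM in Sham 1 to Sham 4 and 99920, 59690 and 69860 CPM after pMCAO, and the part of this difference in the Strip2 values was not tested. Nearest to Prex2 were Sorbs2 (0.23), Gas1 (0.28) and Dlg2 (0.30), and to Fmo2 Prom1 (0.30), Prex2 (0.36) and Gas1 (0.41). Nearest to Kcnn3, at a greater distance, were the fibrillar collagen gene Col3a1 (0.49), Ptn (0.49) and 2610203C20Rik (0.51). Col3a1 was at 6.16, 20.2, 7.87 and 13.4 CPM in Sham 1 to Sham 4 and 62.1, 14.1 and 67.1 CPM in the pMCAO libraries. In pMCAO 2 it lay within the sham range, like Kcnn3.

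Markers of fibroblasts and blood endothelium mostly had higher means after pMCAO, though summed fibroblast markers in pMCAO 2 stayed within the sham range. The mean log2 level of endothelial markers, minus its sham mean, was 0.91 in pMCAO 3 and 1 in Sham 2. All 12 measured endothelial markers and 11 of 12 measured fibroblast markers had higher means after pMCAO, and 0 of either list passed the edgeR test. Summed fibroblast markers came to 114 to 266 CPM in sham libraries and to 561, 201 and 588 CPM in pMCAO 1 to pMCAO 3, and summed endothelial markers to 183 to 500 CPM and to 871, 564 and 678 CPM. Macrophage markers summed to 25180 to 32910 CPM in sham and 23980 to 25970 CPM in pMCAO libraries. Of the 14 macrophage markers 3 had higher and 11 lower means (median log2 change -0.36), and 0 passed the edgeR test. The complement genes C1qa (-0.97, SE 0.22), C1qb (-0.93, SE 0.25) and C1qc (-0.78, SE 0.23) were lower with no overlap, like Nxpe5 and Tcof1, and their part in the values of those genes was not tested. In bulk RNA, fewer cells of a type and less RNA per cell cannot be told apart. The part of fibroblast and endothelial RNA in the values of the 5 higher genes was not tested beyond the covariate fit given after the plot of markers. The 4 markers of interstitial cells of Cajal summed to 83.8 to 142 CPM in sham libraries and to 349, 87.3 and 158 CPM in pMCAO 1 to pMCAO 3, again low in pMCAO 2. Smooth muscle and pericyte markers (8 of 11 measured) summed to 185 to 324 CPM in sham and 199.8 to 398 CPM in pMCAO libraries, and 2 of the 8 had higher means. Markers of large peritoneal macrophages summed to 43.9 to 60.3 CPM in sham and 54.5 to 121 CPM in pMCAO libraries, with Gata6, which defines them, not listed in the table. The glial markers Sox10, Gfap and Foxd3 are not listed in the table, and the summed level of the 3 that were measured was 5.90 to 8.43 CPM in sham and 7.02 to 18.5 CPM in pMCAO libraries.

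Pdgfra, the receptor that defines the fibroblast-like cells in which SK3 is best known, was at 4.82, 16.5, 2.62 and 8.88 CPM in Sham 1 to Sham 4 and at 57.9, 18.5 and 100 CPM in pMCAO 1 to pMCAO 3. Kcnn3 was also lowest among pMCAO libraries in pMCAO 2, as were the other higher genes. Of the measured fibroblast markers, Gsn, P2ry1 and Pi16 were not lowest in pMCAO 2, and the others were. Gsn was at 53.3, 71.0 and 25.1 CPM and P2ry1 at 1.45, 7.82 and 6.95 CPM in pMCAO 1 to pMCAO 3. The endothelial gene Pecam1 was at 63.2, 82.0, 22.3 and 28.9 CPM in Sham 1 to Sham 4 and 124, 83.8 and 93.1 CPM in the pMCAO libraries.

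**Figure D4:**
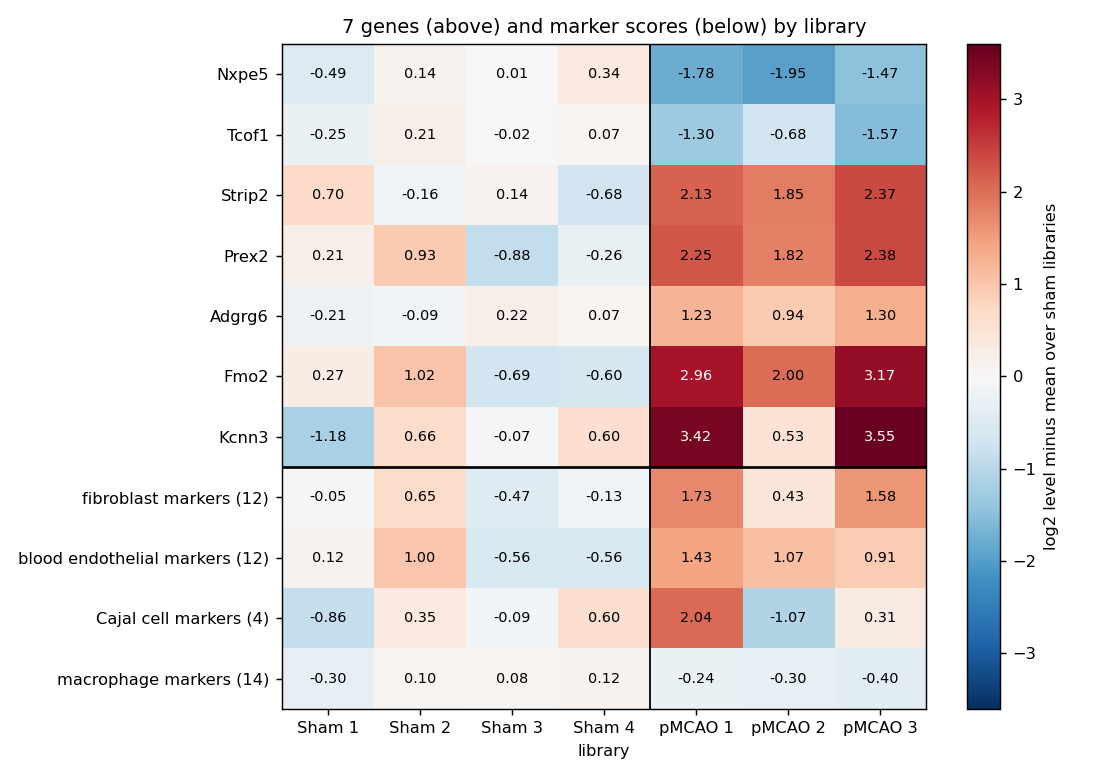
Log2 level in each library minus the mean over sham libraries (colour and printed value) for the 7 genes (upper rows) and for the mean of 4 marker lists (lower rows), with the number of measured markers in parentheses. Kcnn3 and the fibroblast score are both lower in pMCAO 2 (0.53 and 0.43) than in pMCAO 1 and pMCAO 3. Not every marker of the fibroblast score was lowest in pMCAO 2.

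With the mean of fibroblast and endothelial markers as a covariate, the log2 changes of Prex2, Fmo2 and Kcnn3 were 0.89 (SE 0.35), 1.17 (SE 0.37) and 1.66 (SE 1.51). Those of Strip2 (1.93, SE 0.57), Adgrg6 (1.25, SE 0.34), Nxpe5 (-1.81, SE 0.36) and Tcof1 (-1.04, SE 0.33) moved by less than the spread between libraries. The marker score itself was -0.51 to 0.82 in sham and 0.75 to 1.58 in pMCAO libraries, so it nearly separates the groups, and stromal RNA and an effect of pMCAO cannot be told apart by this fit.

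Of the 5 higher genes, 4 have more than 8 kb of summed exon, and the median log2 change over genes rose with exon length. The shortest of these 4, Strip2, is longer than 87.3% of listed genes. The summed exons of Strip2, Kcnn3, Adgrg6 and Prex2 span 8329, 10451, 12228 and 16609 bases, those of Fmo2, Tcof1 and Nxpe5 5609, 5266 and 4473, against a median of 3595 over listed genes. Among genes of at least 5 CPM, the 2105 with more than 8 kb of exon had a median log2 change of 0.17, and 13.1% of them were higher with no overlap against 3.71% lower. The 662 genes of up to 1 kb had a median of -0.25. The longest transcript of Tcof1 holds 58.2% GC and that of Prex2 40.6%, against a median of 48.7%.

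**Figure D5:**
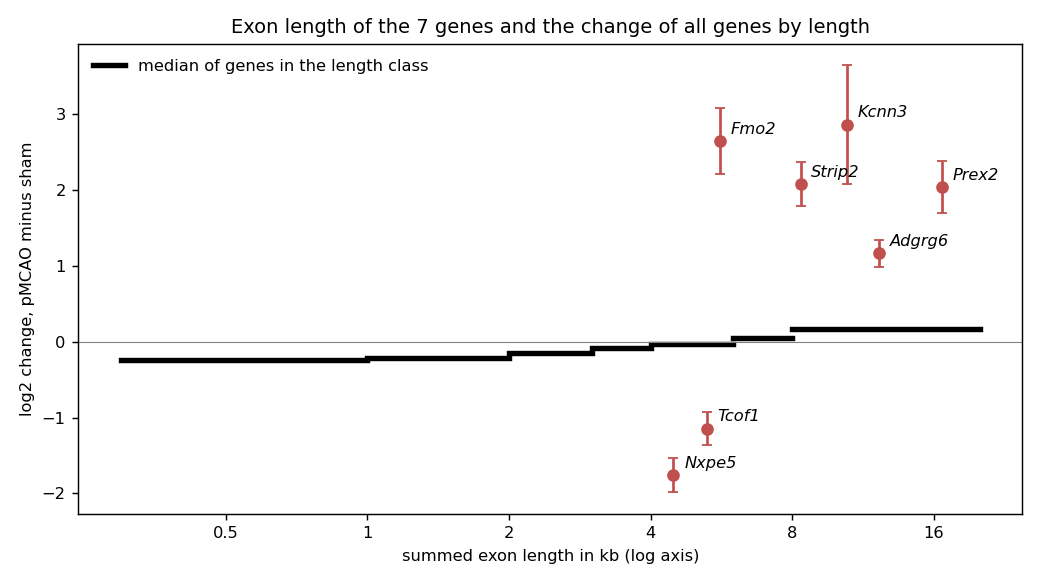
Log2 change, pMCAO minus sham (vertical axis), of the 7 genes (red, bar = SE) against summed exon length in kb (log axis), with the median of all genes of at least 5 CPM in each length class (black). The class medians run from -0.25 for the shortest to 0.17 for the longest genes.

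When GC content and exon length entered the fit as smooth offsets per library, an alternative added after seeing the data, Adgrg6 had a log2 change of 0.87 (SE 0.15), Prex2 of 1.55 (SE 0.37) and Tcof1 of -0.83 (SE 0.14). Nxpe5 (-1.65, SE 0.20), Strip2 (1.92, SE 0.27), Fmo2 (2.47, SE 0.43) and Kcnn3 (2.54, SE 0.75) kept their direction too, and Adgrg6 alone moved by more than the spread between its libraries. In the authors' deposited table the log2 fold changes, stroke against sham, were -1.76 for Nxpe5, 2.47 for Strip2, 1.40 for Prex2, 1.36 for Adgrg6, -1.66 for Tcof1, 2.07 for Fmo2 and 2.86 for Kcnn3. Beside them, the fit used here gave a larger change for Prex2 and Fmo2 and a smaller one for Strip2, Adgrg6 and Tcof1.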

How the data were processed

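RNA-seq libraries of sorted muscularis macrophages were made from 2.0 ng of total RNA with ribosomal RNA cleaved, and read as paired 100 base reads, per the labels' protocols. The deposited table holds read counts per gene, which the authors made from reads on GRCm38 (mm10). The submitters' processing notes name STAR, featureCounts and limma without versions, and the annotation and strand setting were not given in the sources used here. The deposited CPM values equal the count over the library's total in the table. The log2 fold change and mean log2 expression, and the p-values and FDR, in the table are the authors'. Totals were 12685941 to 34432716 counts, so 3 counts correspond to 0.0871 to 0.236 CPM. Reads carry no molecular identifiers, so this covers counting error only. Every listed gene exceeds 0.5 CPM in at least 4 libraries.

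The counts were tested with edgeR 4.0.16 (quasi-likelihood F test, robust, TMM factors, and a low-count filter that removed none of the 17209 genes) in R 4.3.3, two-sided, with Benjamini-Hochberg adjustment over all genes and a threshold of 0.05. The SE is the log2 change over the square root of F. The script was tested on simulated data. Members and lists were chosen with earlier results of these data known. Named were the 7 genes, the 3 genes with the smallest p of each related list, measured paralogs, and the 3 nearest profiles of log2(CPM + 0.5), centred on their means. A few genes that this rule names are not reported here. Cd74, Lamtor4, Pecam1, Pdgfra and the chromosome neighbours were chosen after their values were seen. Coordinates and exon lengths come from GENCODE M21 (GRCm38), where 99.4% of the identifiers were found on the chromosome given in the table. Alternatives were other factors and filters, DESeq2 1.42.0, limma-voom 3.58.1, a replicate block, a marker covariate, leaving out each library and, added later, GC and length offsets (mgcv 1.9.3). GC and length were known for 99.5% of genes.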

Additional observations from a re-analysis of the deposited data

Results flagged for a closer look

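Among 52 named genes, 4 had a sham library that stood apart from the other 3 by its gap to the nearest of them, where chance gives about 1 gene in 20. In Sham 1, Adgrl2 was at 28.7 CPM against 46.3 to 47.1 in the others, the Prex2 paralog Prex1 at 186 CPM against 282 to 297, and Il21r, near Tcof1 in profile, at 35.9 CPM against 50.5 to 51.4. In Sham 3, Tex12, near Adgrg6 in profile, was at 5.90 CPM against 3.96 to 4.04. None of the 7 genes themselves had such a library.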

How the results depend on the processing

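The 7 genes kept their direction under all 17 alternatives, which for the 6 without overlap leaving out a library could not turn. Their log2 changes moved by less than the spread between libraries except for Prex2 (0.89) and Fmo2 (1.17) with the marker covariate and Adgrg6 (0.87) with GC and length offsets. The count of changed genes, 17 over all libraries, was 34 with upper-quartile factors, 29 without scaling factors, 75 over genes of at least 5 CPM, 476 with DESeq2, 35 with limma-voom, 34 with GC and length offsets and 0 with the marker covariate (1022 at an unadjusted p under 0.05 by edgeR). Leaving out 1 library gave 0 to 100 calls: 47 each for Sham 1 and Sham 2, 9 for Sham 4, 0 for pMCAO 1 (by edgeR, 1987 had an unadjusted p under 0.05), 100 for pMCAO 2 and 7 for pMCAO 3. Without scaling factors the median of all genes was -0.14 in place of -0.02. Of the 119 related genes, 2 passed over genes of at least 5 CPM, 8 with DESeq2, 3 with limma-voom and 0 to 3 when a library was left out. The median of the ribosomal DNA transcription list turned to 0.005 once genes under 5 CPM were dropped, from a cause that was not tested. Sham and pMCAO libraries share only a number: deviations of same-numbered libraries correlated at -0.11, 0.01 and 0.18, and with the replicate block 21 genes changed, of which 1 (Adgrl4) was a related gene. Depth was not a limit for the 7 genes, with at least 93 reads in every library.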

Other observations

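Other genes beside the 7 on the chromosome gave values of their own. Pmvk, a kinase of the mevalonate pathway that lies 51151 bases before Kcnn3, was at 8.67, 6.67, 9.03 and 7.75 CPM in Sham 1 to Sham 4 and at 3.25, 3.49 and 2.86 CPM in pMCAO 1 to pMCAO 3, with no overlap between groups (log2 change -1.33, SE 0.41, adjusted p = 0.192 by edgeR). Adar, the RNA-editing enzyme 39890 bases after Kcnn3, was at 40.8 ± 8.58 and 25.8 ± 4.27 CPM with no overlap (log2 change -0.66, SE 0.24, adjusted p = 0.255). Both lay lower after pMCAO while Kcnn3 lay higher in pMCAO 1 and pMCAO 3. Nrf1, the next listed gene after Strip2, was at 40.1 ± 9.72 and 39.0 ± 7.95 CPM (log2 change -0.04, SE 0.24, adjusted p = 0.962), and Vta1, beside Adgrg6, at 35.9 ± 10.6 and 32.1 ± 8.48 CPM (log2 change -0.16, SE 0.27, adjusted p = 0.843).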
